A study of Homo sapiens with 21 samples.

Results

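The FUBP3 and KHSRP libraries treated with RNase T1 at 0.5 U/ul were compared, 1 library for each protein, out of 21 samples listed in the series and 17 with a cluster file. Both were chosen by their labels, with earlier results of these data known. The FUBP3 library held 14563 clusters with 179853 reads, and the KHSRP library held 14270 clusters with 125960 reads. The study set a fluorescent form of PAR-CLIP (fPAR-CLIP) beside the older radiolabelled form on several tagged RNA-binding proteins. Both libraries came from Flp-In T-REx 293, an established line of human embryonic kidney origin, with a stably integrated transgene for FLAG-HA tagged FUBP3 or KHSRP. Cells of both lines were labelled with 100 uM 4-thiouridine for 8 to 12 h and crosslinked with ultraviolet light (UVA or UVB). The tagged protein was pulled down with anti-FLAG beads, and both libraries are labelled PAR-CLIP, not fPAR-CLIP. The 3' adapters of the libraries differed. Per the labels, KHSRP pellets were lysed in RIPA buffer and sonicated, and no buffer is named for FUBP3, so where the lysis differed it and the protein cannot be told apart. The shared protocol text names RNase I, and the sample titles name RNase T1. The level of each tagged protein is not given in the labels. With 1 library per protein there is no spread between replicates and no test, and every interval below covers counting error only.

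FUBP3 and KHSRP belong to the far upstream element binding protein family, whose members bind single-stranded nucleic acid through tandem KH domains. KHSRP (also KSRP) is known for promoting the decay of mRNAs with AU-rich elements, for a part in splicing and for binding precursors of some microRNAs. FUBP3 is known for binding the 3' UTR of beta-actin mRNA. In PAR-CLIP, reverse transcription past a crosslinked 4-thiouridine leaves a T-to-C change in the read, and overlapping reads with such changes are grouped into clusters that mark bound RNA. RNase T1 cuts RNA after G.

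The cluster sequences below come from some of the RNAs named further on, which range from far toward either protein to close shares (ERC1). These sequences are shown because the libraries differed in both the place and the letters of their clusters. They run 5' to 3' on the strand of the RNA, in hg38. Capitals mark every match to TTTTT or TATA, the motifs whose shares differed most toward FUBP3 and toward KHSRP. In 3' UTRs a window of at most 30 nt is shown. The 3' UTR windows are chr5:137752861-137752890 (HNRNPA0), chr6:21598177-21598206 (SOX4), chr2:74214983-74215012 (MTHFD2) and chr19:32713589-32713618 (NUDT19), the first on the minus strand and the others on the plus strand. The intronic clusters are chr10:119581182-119581203 and chr10:119581376-119581409 (TIAL1, minus), chr17:31189218-31189239 and chr17:31160888-31160908 (NF1, plus) and chr12:1230759-1230797 (ERC1, plus). The HNRNPH1 cluster at chr5:179619784-179619833 (minus) is labelled as crossing an intron-exon boundary, and the XIST clusters lie at chrX:73827772-73827827 and chrX:73850350-73850377 (minus).
HNRNPA0, FUBP3: ttattacttggaccttggtcgTTTTTATAc
SOX4, FUBP3: tctacttgtcgctaaaTATAattgttttag
MTHFD2, FUBP3: cttttgcTATATActttaacttcattgtta
NUDT19, FUBP3: aatatgagtaaTTTTTcatcatctttcaag
TIAL1, FUBP3: tttatcataatttatctttctg
TIAL1, KHSRP: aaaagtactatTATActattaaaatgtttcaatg
NF1, FUBP3: TATAtgtgtacaTTTTTacttg
NF1, KHSRP: cataaaatgTATAttatcttg
ERC1, KHSRP: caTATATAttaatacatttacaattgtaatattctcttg
HNRNPH1, KHSRP: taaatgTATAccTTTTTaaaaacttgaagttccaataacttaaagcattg
XIST, FUBP3: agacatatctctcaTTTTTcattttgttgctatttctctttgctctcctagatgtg
XIST, KHSRP: agaattcactttaattacatttaatgag

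The libraries were similar in cluster number and median cluster length. The median cluster was 23 nt long with FUBP3 and 22 nt with KHSRP, and the longest was 420 nt and 177 nt. A cluster held at least 5 reads in both. The median was 7 reads with FUBP3 and 6 with KHSRP, and the 100 most read clusters held 14.8% and 8.86% of reads. There were 77.2 distinct read sequences per 100 reads with FUBP3 and 70.7 with KHSRP. Reads with a T-to-C change made up 76.1% and 80.1% of the reads. The last base of the cluster was G in 96.4% of FUBP3 and 96.3% of KHSRP clusters. With RNase I at 0.5 U/ul, in the fluorescent form, G was last in 14.3% and 17.3%. T1 clusters with no inner G made up 44.1% of FUBP3 and 55.4% of KHSRP clusters. How this bears on motifs that contain G was not tested. Where clusters of the libraries overlapped, they had the same base at 100% of 52495 positions, so both files use the same coordinates.

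The deposited gene names could not be used. No annotation was given for 61.4% of FUBP3 and 62.0% of KHSRP clusters. Gene and region were therefore taken from an overlapping fluorescent cluster of the same protein, which was found for 7973 FUBP3 clusters (54.7%, with 71.6% of reads) and 6399 KHSRP clusters (44.8%, with 54.7% of reads). Where both names existed, they were equal for 31.5% of 2922 FUBP3 and 37.1% of 2346 KHSRP clusters. Names that differed but lay on the same chromosome were a median of 396 kb and 431 kb apart. The names taken from fluorescent clusters matched the RefSeq gene at that position for 98.3% and 97.7% of clusters. The clusters with no name had a median of 6 reads in both libraries, against 9 and 8 for the others.

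Most bound sites were called in 1 library and not in the other. Of the FUBP3 clusters, 2213 (15.2%, 95% Wilson interval 14.6 to 15.8) overlapped a KHSRP cluster (same strand, 1 nt or more), and these held 33.4% of FUBP3 reads. Of the KHSRP clusters, 2242 (15.7%, 15.1 to 16.3) overlapped a FUBP3 cluster, with 25.9% of KHSRP reads. Shared clusters had more reads than the others, with medians of 11 against 7 for FUBP3 and 9 against 6 for KHSRP. Among the 1000 most read clusters of each library the shares were 21.4% and 23.1%.

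The fluorescent libraries, made with RNase I, held more of the T1 clusters of their own protein than of the other. An overlapping fluorescent cluster at any of 3 doses was found for 54.7% (53.9 to 55.6) of FUBP3 T1 clusters in FUBP3 libraries and for 37.0% (36.3 to 37.8) in KHSRP libraries. For KHSRP T1 clusters the shares were 44.8% (44.0 to 45.7) in KHSRP libraries and 31.4% (30.6 to 32.1) in FUBP3 libraries. The fluorescent libraries differ in size, from 27711 to 180358 clusters. At 0.5 U/ul, 37.2% of FUBP3 T1 clusters were found with FUBP3 and 19.2% with KHSRP, and 22.7% of KHSRP T1 clusters were found with KHSRP and 19.4% with FUBP3. At 1.5 U/ul, where the KHSRP library was smallest, KHSRP T1 clusters were found less with KHSRP (5.15%) than with FUBP3 (9.09%). When the overlap had to cover 50% of both clusters, the order for KHSRP also turned, with 12.6% in its own libraries and 13.4% in those of FUBP3, while FUBP3 kept 26.3% against 13.2%.

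Among assigned clusters, those of FUBP3 lay mainly in 3' UTRs and those of KHSRP mainly in introns. The region is not known for the 45.3% of FUBP3 and 55.2% of KHSRP clusters that were not assigned. Of assigned FUBP3 clusters, 69.8% (68.8 to 70.8) were in 3' UTRs and 17.7% (16.9 to 18.6) in introns. Of assigned KHSRP clusters, 18.5% (17.5 to 19.4) were in 3' UTRs and 67.9% (66.7 to 69.0) in introns. By reads the 3' UTR held 66.3% with FUBP3 and 18.0% with KHSRP. Clusters across an intron-exon boundary made up 0.163% (0.0953 to 0.279) of FUBP3 and 2.08% (1.76 to 2.46) of KHSRP clusters, and held 0.083% and 3.84% of reads. Region labels came from each protein's own fluorescent clusters. At 1063 overlapping pairs of clusters with a label in both libraries, the labels were equal for 518 of 526 pairs with a FUBP3 label of 3' UTR and for 288 of 291 pairs with a KHSRP label of intron, but for 5 of 20 pairs with a KHSRP label of boundary. With labels from the fluorescent clusters of both proteins, 3' UTRs held 63.3% of FUBP3 and 21.5% of KHSRP clusters, introns 23.4% and 64.9%, and boundaries 0.577% and 1.69%. The boundary class therefore depends on the source of the label, and boundary shares below are by each protein's own labels unless stated. Long noncoding RNA had similar shares of clusters, 3.83% and 4.30%, but 10.1% and 6.74% of reads in assigned clusters. Much of that is XIST, which alone held 5.29% of all FUBP3 and 1.95% of all KHSRP reads in clusters. Coding sequence was rare, at 1.53% and 1.20%.

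**Figure D1:**
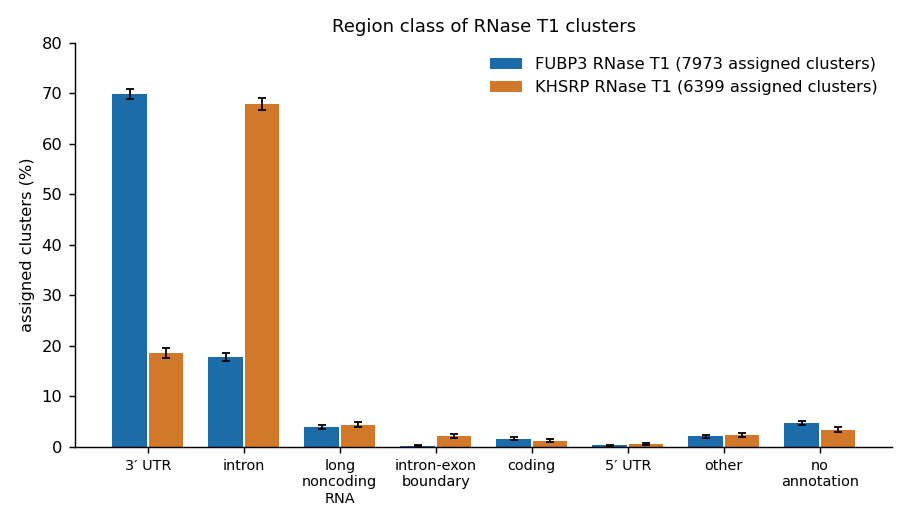
Share of assigned clusters (y axis, percent) in each region class (x axis) for the FUBP3 (7973 clusters) and KHSRP (6399 clusters) RNase T1 libraries, with 95% Wilson intervals as error bars. The 3' UTR share is 69.8% with FUBP3 and 18.5% with KHSRP, and the intron share is 17.7% and 67.9%.

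The difference in 3' UTR share was wider among assigned T1 clusters than in the fluorescent libraries as a whole. The T1 shares cover 54.7% of FUBP3 and 44.8% of KHSRP clusters, and the fluorescent shares cover all clusters. There, 3' UTRs held 18.9% to 20.8% of FUBP3 clusters and 8.65% to 9.23% of KHSRP clusters over the 3 doses, and introns held 62.5% to 64.3% and 73.1% to 79.1%. Fluorescent FUBP3 clusters that overlapped a T1 cluster were 72.7% to 76.3% in 3' UTRs, and those of KHSRP 17.9% to 25.8%. By reads, fluorescent FUBP3 libraries had 30.5% to 37.2% in 3' UTRs. The fluorescent clusters under T1 clusters thus had the regions of the T1 clusters, which were named from them. The RNase, the protocol and this selection of clusters all differ between the shares set side by side, and cannot be told apart.

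Among assigned clusters, sites bound in both libraries lay between these patterns. Shared FUBP3 clusters were 53.3% (50.8 to 55.9) in 3' UTRs and 26.8% in introns, and FUBP3 clusters with no KHSRP overlap were 73.4% (72.3 to 74.5) and 15.7%. Shared KHSRP clusters were 42.1% (39.5 to 44.7) in 3' UTRs and 35.97% in introns, and KHSRP clusters with no FUBP3 overlap were 11.7% (10.8 to 12.6) and 77.0%. Only 1453 of 2213 shared FUBP3 clusters and 1426 of 2242 shared KHSRP clusters had a region. Where both clusters of a pair had one, the labels were equal for 96.1% of 1063 pairs. The gap between the shared values is therefore not a difference between the proteins at these sites.

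By each protein's own labels, the difference in region also held within single genes. No count within genes is given with labels from both proteins. Over 370 genes with at least 20 reads in each library, the median gene had 81.8% of its FUBP3 reads and 15.6% of its KHSRP reads in the 3' UTR. In 134 of these genes more than 50% of FUBP3 reads lay in the 3' UTR and more than 50% of KHSRP reads in introns. In 110 genes both libraries read mainly the 3' UTR, and in 83 genes both read mainly introns. The opposite arrangement, FUBP3 in introns and KHSRP in the 3' UTR, was found in 3 genes, which are named here after their values were seen. These were TARDBP (51.9% of FUBP3 reads in introns, 61.8% of KHSRP reads in the 3' UTR), TRMT11 (68.2% and 65.0%) and ZRANB2 (51.4% and 51.2%). TMPO, a nuclear lamina protein, shows the common arrangement, with 97.8% of 776 FUBP3 reads in the 3' UTR and 71.9% of 167 KHSRP reads in introns. Its most read clusters lay near each other, at chr12:98535295-98535367 with FUBP3 (3' UTR) and chr12:98535567-98535588 with KHSRP (intron). Whether the labels there depend on their source was not tested.

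**Figure D2:**
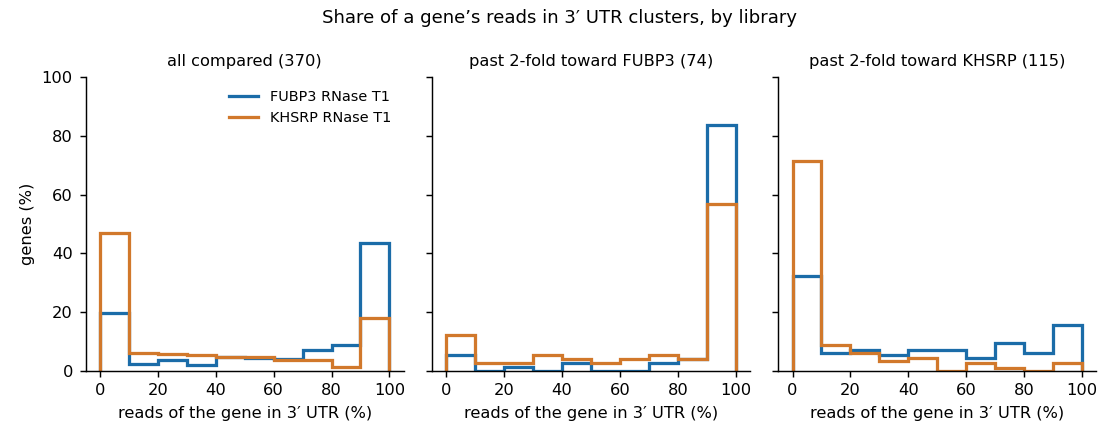
Distribution over genes (y axis, percent of genes) of the share of a gene's reads that lie in its 3' UTR (x axis, percent, bins of 10), for FUBP3 and KHSRP RNase T1 libraries. Panels show all 370 genes compared (medians 81.8% and 15.6%), the 74 past 2-fold toward FUBP3 (medians 100% and 100%) and the 115 past 2-fold toward KHSRP (medians 37.5% and 0%).

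Reads per gene were compared as the share of all reads in clusters, as the log2 ratio of FUBP3 over KHSRP. Of the 370 genes, 74 (20%) were past 2-fold toward FUBP3 and 115 (31.1%) toward KHSRP. The median ratio was -0.35. With the ratios centred on that median, 106 genes were past 2-fold toward FUBP3 and 88 toward KHSRP, so FUBP3 took 39.2% of the calls under the first scaling and 54.6% under the second. The genes toward FUBP3 were read mainly in the 3' UTR in both libraries, with a median 3' UTR share of reads of 100% in each. The genes toward KHSRP had a median of 90.3% of KHSRP reads and 52.0% of FUBP3 reads in introns. Of 3311 genes with a cluster in either library, 1554 had clusters in the FUBP3 library alone and 610 in the KHSRP library alone. No ratio is given for those, since clusters under 5 reads were not listed.

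**Figure D3:**
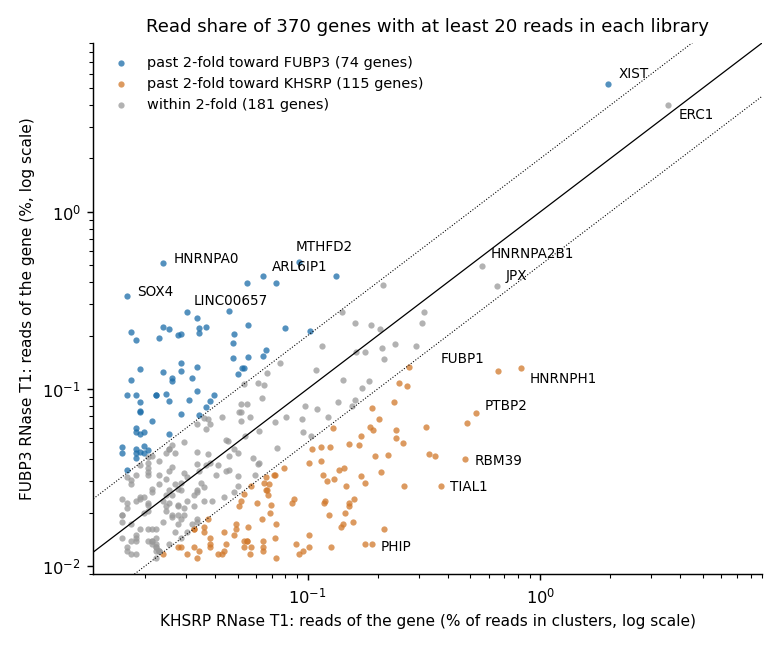
Share of all reads in clusters that fell on each of 370 genes in the KHSRP (x axis) and FUBP3 (y axis) RNase T1 libraries, in percent on log scales. The solid line marks equal shares and the dotted lines 2-fold. HNRNPA0 lies furthest above the line (0.512% against 0.0238%), PHIP furthest below (0.0133% against 0.189%), and ERC1 close to it (4.00% against 3.54%).

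HNRNPA0, an hnRNP that binds AU-rich elements, lay furthest toward FUBP3. It had 921 FUBP3 reads in 13 clusters and 30 KHSRP reads in 3 clusters, all in the 3' UTR in both libraries (log2 ratio 4.43, 95% interval 3.90 to 5.00). SOX4, a transcription factor of progenitor cells, had 605 FUBP3 reads in 16 clusters and 21 KHSRP reads in 1 cluster, again all in the 3' UTR (4.33, 3.71 to 5.04). The KHSRP cluster of SOX4 lay inside its most read FUBP3 cluster, chr6:21598137-21598206. ARPP19, an inhibitor of the phosphatase PP2A, had 379 and 22 reads (3.59), and CD164, a sialomucin, had 338 and 23 (3.36). In these 4 genes all KHSRP reads lay in the 3' UTR, as did at least 96.7% of FUBP3 reads.

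The rest of the 10 genes furthest toward FUBP3 were also read in the 3' UTR or along a noncoding RNA, except for the KHSRP reads of NUCKS1. NUDT19, a Nudix hydrolase, had 392 FUBP3 and 32 KHSRP reads (3.10), SMC1A, a cohesin subunit, had 350 and 29 (3.08), PPP1CC, a catalytic subunit of protein phosphatase 1, had 453 and 42 (2.92) and CEBPG, a bZIP transcription factor, had 361 and 35 (2.85). In each at least 96.9% of FUBP3 reads and 100% of KHSRP reads were in the 3' UTR. NUCKS1, a chromatin-associated protein, had 403 and 30 reads (3.23), with 100% of FUBP3 reads in the 3' UTR and 53.3% of KHSRP reads in introns. The noncoding RNA NORAD, listed as LINC00657 and known for binding Pumilio proteins, had 487 and 38 reads (3.17, 2.69 to 3.68). Its most read FUBP3 cluster, chr20:36049657-36049697, and its most read KHSRP cluster, chr20:36046061-36046088, lay at different places.

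Several of the most read FUBP3 mRNAs were of the same kind. MTHFD2, a mitochondrial enzyme of folate metabolism, had 938 FUBP3 and 116 KHSRP reads (2.50, 2.22 to 2.79), ARL6IP1, a protein that shapes the endoplasmic reticulum, had 776 and 81 (2.75) and KLHL15, a substrate adaptor of a cullin ubiquitin ligase, had 709 and 92 (2.43). In MTHFD2 the most read cluster of both libraries started at the same base, chr2:74214983, and held 414 FUBP3 and 58 KHSRP reads. Its window, printed above, holds a TATATA run.

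The 10 genes furthest toward KHSRP were read mainly in introns. PHIP, a substrate receptor of a cullin ubiquitin ligase, had 24 FUBP3 reads in 2 clusters and 238 KHSRP reads in 22 clusters, all in introns (-3.82, -4.49 to -3.22). TIAL1, an RNA-binding protein that binds U-rich and AU-rich RNA, had 51 FUBP3 reads in 5 clusters and 469 KHSRP reads in 26 clusters, 95.3% of the latter in introns (-3.71, -4.16 to -3.30). Its most read clusters, the pair printed above, held 16 FUBP3 and 95 KHSRP reads and did not overlap. RBM39, a splicing factor, had 72 FUBP3 reads in 7 clusters and 598 KHSRP reads in 34 clusters, 95.8% of these in introns (-3.57, -3.94 to -3.21). These genes carried many KHSRP clusters each, and few FUBP3 clusters.

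The other genes of that set also had most of their KHSRP reads in introns. IARS, an aminoacyl-tRNA synthetase, had 24 FUBP3 and 221 KHSRP reads (-3.72), with 52.9% of KHSRP reads in introns and 47.1% at an intron-exon boundary. AGFG1, a protein with nucleoporin-type repeats, had 29 and 267 (-3.72), and CNOT2, a subunit of the CCR4-NOT deadenylase, had 51 and 327 (-3.19). ZNF195, a zinc finger protein, had 75 and 446 (-3.09). CDC42BPA, a kinase, had 23 and 159 (-3.30), C2CD5, a C2 domain protein, had 32 and 197 (-3.14), and NF1, an inhibitor of Ras, had 30 and 175 (-3.06). NF1 also had 40.0% of its FUBP3 reads and 9.71% of its KHSRP reads in the 3' UTR. The NF1 clusters printed above held only 8 FUBP3 and 27 KHSRP reads.

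Among the most read KHSRP genes, the splicing regulator HNRNPH1 had 235 FUBP3 and 1036 KHSRP reads (-2.65, -2.86 to -2.45). By each protein's own labels all FUBP3 reads were in introns and 95.6% of KHSRP reads were across an intron-exon boundary. With labels from both proteins, a setting applied to this gene after the data were seen, boundary clusters held 91.5% of FUBP3 and 95.1% of KHSRP reads, so the regions did not contrast there. Its most read KHSRP cluster, chr5:179619683-179619754, held 240 reads. PTBP2, the neuronal relative of the splicing repressor PTBP1, had 131 and 663 reads (-2.85, -3.13 to -2.58), 97.6% of KHSRP reads in introns. HELLS, a chromatin remodeller, had 116 and 611 (-2.91, -3.21 to -2.62), with 70.0% of KHSRP reads in introns and 30.0% at a boundary.

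Several of the most read genes had close shares. ERC1, a scaffold protein gene whose reads lay wholly in introns, had 7203 FUBP3 reads in 104 clusters (4.00% of reads) and 4453 KHSRP reads in 172 clusters (3.54%), a log2 ratio of 0.18 (0.13 to 0.23). Without its most read cluster in each library the ratio was -0.39. HNRNPA2B1 had 892 and 707 reads (-0.18, -0.32 to -0.03). Without its most read cluster in each library the ratio was -0.93. Its fluorescent ratios were -0.38, -3.71 and -2.11 at 0.15, 0.5 and 1.5 U/ul. With ratios centred on the median gene, HNRNPA2B1 would lie on the FUBP3 side. Its most read clusters overlapped, at chr7:26191907-26191935 with KHSRP (110 reads) and chr7:26191901-26191937 with FUBP3 (446 reads), but 95.4% of FUBP3 and 50.4% of KHSRP reads were in the 3' UTR.

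The fluorescent libraries of the same proteins gave a second set of libraries for each gene. They share no library with the T1 comparison, but the T1 gene names were taken from them. Their reads repeat the same sequences more, and unequally between the proteins. Per 100 reads they held 14.2 to 19.1 distinct sequences with FUBP3 and 25.2 to 44.7 with KHSRP. A single distinct sequence made up 71.0% to 79.3% of FUBP3 and 16.9% to 66.4% of KHSRP fluorescent clusters. Of the 74 genes toward FUBP3, 71 had clusters of both proteins at all 3 doses, and 51 of these (71.8%) had a ratio above 0 at every dose, against 73 of 358 (20.4%) over all genes compared. Of the 115 genes toward KHSRP, 114 were measured and 97 (85.1%) were below 0 at every dose, against 188 of 358 (52.5%). HNRNPA0 had fluorescent ratios of 3.13, 2.38 and 2.59 at 0.15, 0.5 and 1.5 U/ul, and SOX4 2.21, 2.25 and 3.96. RBM39 had -2.82, -2.38 and -2.35, and TIAL1 -1.87, -2.10 and -1.48. NUCKS1 was near 0 there, at -0.14, 0.29 and 0.31, and PHIP had -1.61, -1.19 and 0.02.

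**Figure D4:**
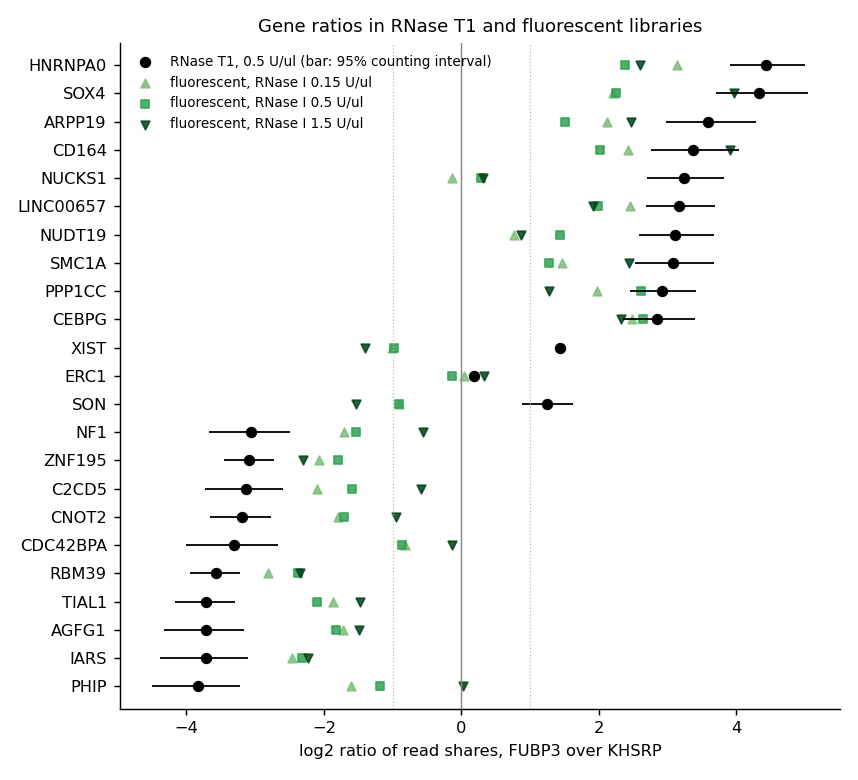
Log2 ratio of read shares, FUBP3 over KHSRP (x axis), for the 10 genes furthest toward each protein in the RNase T1 libraries and for XIST, ERC1 and SON (y axis). Black points are RNase T1 with 95% counting intervals, and green markers are the fluorescent libraries at 0.15, 0.5 and 1.5 U/ul RNase I. XIST (1.44) and SON (1.24) lie right of 0 with RNase T1 and left of 0 at all 3 fluorescent doses.

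mRNAs of SR and hnRNP proteins, which control splicing, went in both directions. Of 27 genes listed, 19 could be compared, with 2 past 2-fold toward FUBP3 and 6 toward KHSRP and a median of -0.18, against -0.35 over all 370 genes. With ratios centred on the median gene this median was 0.17. SRSF2 had 494 FUBP3 and 58 KHSRP reads, all in the 3' UTR (2.58), and SRSF4 had 61 and 260 (-2.61). HNRNPH3 had 41 FUBP3 reads, all in the 3' UTR, and 190 KHSRP reads, 85.8% in introns (-2.73). HNRNPU had 193 and 311 reads (-1.20), 97.4% of the former in the 3' UTR and 53.7% of the latter at an intron-exon boundary. HNRNPF, a close relative of HNRNPH1, had 149 FUBP3 reads, all in the 3' UTR, and 9 KHSRP reads, too few to be compared.

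Of 22 mRNAs of nuclear speckle and transcription-linked factors listed, 11 were compared, with 7 past 2-fold toward KHSRP and 1 toward FUBP3, and a median of -1.32. Over all 370 genes, 31.1% were past 2-fold toward KHSRP and 20% toward FUBP3, with a median of -0.35. Besides RBM39, these included DDX46, a helicase of the U2 snRNP (53 and 221 reads, -2.57), PNISR, an SR-like protein (75 and 244, -2.22), and LUC7L3, a U1 snRNP-associated factor (41 and 108, -1.91). Cyclin L1 (CCNL1) had no FUBP3 cluster and 235 KHSRP reads in introns, and TPR, a nuclear pore protein, had none and 91. Of the 20 listed genes with a cluster, 5 had KHSRP clusters alone and none FUBP3 clusters alone. Over all 3311 genes these counts were 610 and 1554. SON, a scaffold of speckles, was the 1 past 2-fold toward FUBP3, with 274 FUBP3 and 81 KHSRP reads (1.24, 0.88 to 1.62). Its fluorescent ratios were -0.91, -0.91 and -1.53. Of its T1 reads, 85.8% with FUBP3 and 30.9% with KHSRP were in the 3' UTR.

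Other groups were small, and their counts stand beside 115 of 370 genes toward KHSRP (31.1%) and 74 toward FUBP3 (20%). Of 15 helicases, 6 were compared, with 3 toward KHSRP and 1 toward FUBP3 and a median of -0.90. DHX15, which releases spliced introns, had 36 and 182 reads (-2.85), and DDX21, a nucleolar helicase, had 298 and 83 (1.33), all in the 3' UTR in both. Of 26 mRNAs known for AU-rich elements, the class KHSRP is known to destabilise, 4 were compared, with 2 toward FUBP3 and 1 toward KHSRP. These were SOX4, ELAVL1 (108 and 23 reads, 1.72) and TIAL1. Of the 15 with a cluster in either library, 9 had FUBP3 clusters alone and none had KHSRP clusters alone. Among the 9 were CTNNB1 (91 reads), ZFP36L2 (55) and ZFP36L1 (48). Over all 3311 genes with a cluster in either library, 1554 had FUBP3 clusters alone and 610 had KHSRP clusters alone. JUN had 81 FUBP3 and 13 KHSRP reads, all in the 3' UTR. Of factors that form mRNA 3' ends, 2 of 18 were compared and neither was past 2-fold, with CPSF6 at 312 and 369 reads (-0.76).

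For microRNA machinery, 2 of 15 genes were compared, and TNRC6A (42 and 65 reads, -1.14) was past 2-fold toward KHSRP. DICER1 had no FUBP3 cluster and 40 KHSRP reads in introns, and AGO2 had 15 FUBP3 reads and no KHSRP cluster. Of chromatin proteins, 3 of 14 were compared. HMGB2 (413 and 70 reads, 2.05) and TMPO (1.70) lay toward FUBP3, and HMGN1 (51 and 72, -1.01) was just past 2-fold toward KHSRP. Of long genes of neuronal type, 2 of 21 were compared, ERBB4 (25 and 69 reads, -1.98) and ERC1. Of ribosomal proteins and translation factors, 1 of 21 was compared, RPS24 (23 and 81, -2.33). Of insulin and IGF signalling genes, none of 17 had 20 reads in both libraries. Of the 5 with a cluster in either library, 4 had FUBP3 clusters alone, with PIK3R1 at 23 reads, against 1554 of 3311 over all genes.

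The mRNAs of the FUBP family itself were bound. FUBP1 had 228 FUBP3 reads and 832 KHSRP reads (-2.38, -2.60 to -2.17), and its most read clusters overlapped, at chr1:77948417-77948508 with FUBP3 (76 reads) and chr1:77948417-77948483 with KHSRP (85 reads). That stretch was labelled 3' UTR in 1 set of fluorescent clusters and otherwise in the other, so no region is compared for this gene. FUBP3 mRNA had 133 FUBP3 and 7 KHSRP reads, and KHSRP mRNA had 70 and 6, so both lay toward FUBP3 on few KHSRP reads and were not compared. The transgene mRNA and the endogenous mRNA cannot be told apart within coding sequence, but 96.2% of the FUBP3 reads on FUBP3 mRNA and 71.4% of those on KHSRP mRNA were in the 3' UTR. On FUBP3 mRNA the most read cluster was the same in both libraries, chr9:130637517-130637541 (plus), shown here because each protein bound it.
FUBP3 mRNA, both: ttttattgcaTTTTTaaaaaaactg

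Of 17 long noncoding RNAs listed, 6 were compared, with 3 toward FUBP3 and 1 toward KHSRP and a median of 0.45, which became -0.28 when genes were named from fluorescent clusters of both proteins. NEAT1, the scaffold of paraspeckles, had 110 FUBP3 and 233 KHSRP reads (-1.60, -1.94 to -1.26), and MALAT1, a speckle RNA, 271 and 70 (1.44, 1.06 to 1.84). The fluorescent ratios of NEAT1 were -2.20, -1.69 and -2.25, and those of MALAT1 4.95, -1.69 and -0.53, so MALAT1 had no steady direction there. JPX, a neighbour of XIST, had 686 and 816 reads (-0.76). Its most read clusters overlapped at chrX:73974505-73974540 with 46 and 42 reads.

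XIST, which coats the inactive X chromosome, had 9516 FUBP3 reads (5.29% of the library) and 2459 KHSRP reads (1.95%), a log2 ratio of 1.44 (1.37 to 1.503). Its fluorescent ratios had the opposite sign, -1.01, -0.99 and -1.40. The FUBP3 reads lay in a narrow stretch. Over the whole gene (chrX:73820656-73852714), 6744 of 9903 FUBP3 reads (68.1%) and 488 of 2467 KHSRP reads (19.8%) lay between 24000 and 26000 nt from its 5' end, counted along the genome. In the fluorescent libraries that stretch held 12.7% to 21.9% of FUBP3 reads and 12.8% to 21.4% of KHSRP reads. Outside it, T1 reads of XIST made up 1.76% of the FUBP3 library and 1.57% of the KHSRP library. The KHSRP reads were spread, with the most in the bin from 2000 to 3000 nt (18.5%, against 2.80% with FUBP3). That bin holds the KHSRP cluster printed above, with 285 reads and no FUBP3 overlap.

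**Figure D5:**
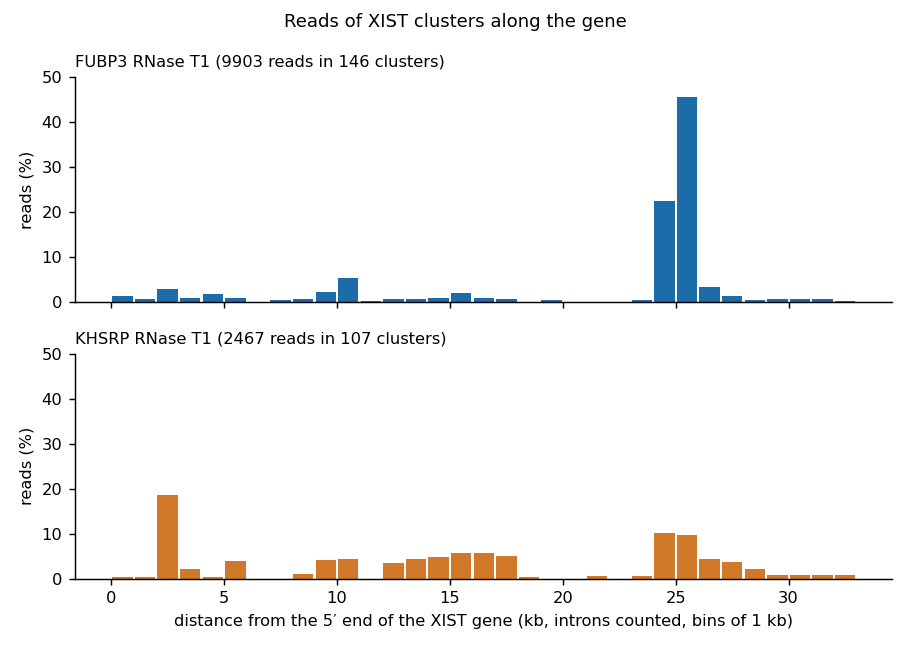
Share of XIST reads (y axis, percent) in bins of 1000 nt along the gene, by distance from its 5' end in kb with introns counted (x axis), for the FUBP3 (9903 reads in 146 clusters) and KHSRP (2467 reads in 107 clusters) RNase T1 libraries. With FUBP3, 45.5% of reads lie between 25000 and 26000 nt, and with KHSRP the highest bin, between 2000 and 3000 nt, holds 18.5%.

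At sites bound in both libraries, reads were compared directly. Overlapping clusters formed 2201 shared sites, of which 209 had at least 20 reads in each library. Of these, 56 (26.8%) were past 2-fold toward FUBP3, 37 (17.7%) toward KHSRP and 116 within 2-fold, with a median log2 ratio of 0.07. The order turned for single pairs of clusters that overlapped by 50% of each, with 29 toward FUBP3 and 35 toward KHSRP of 165. Of the 56 sites toward FUBP3, 32 were in 3' UTRs and 7 in introns. Of the 37 toward KHSRP, 2 were in 3' UTRs and 19 in introns. Of the 116 within 2-fold, 36 were in 3' UTRs and 18 in introns. These labels are those of the FUBP3 cluster where it had one. By the KHSRP labels, chosen after the data were seen, the 3' UTR held 32 and 1 and introns 8 and 15.

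The 3 shared sites furthest toward FUBP3 were all in the XIST stretch. They were chrX:73827383-73827572 (1454 FUBP3 and 80 KHSRP reads, 3.67), chrX:73827772-73827827 (903 and 54, 3.55) and chrX:73827280-73827382 (518 and 34, 3.42). The cluster printed above for XIST with FUBP3 is the middle one of these and is rich in T and C. The shared site with the most reads, chr12:1201158-1201577 in an intron of ERC1, was a single cluster of 2728 reads with FUBP3 and 5 clusters with 600 reads with KHSRP (1.67). A second ERC1 site next to it, chr12:1200919-1201141, had 1033 and 340 reads (1.09). So ERC1 as a whole had close shares in both libraries while this stretch lay toward FUBP3.

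Of the 6 most read shared sites, another pair lay in XIST, chrX:73827587-73827770 (2537 and 184 reads, 3.27) and chrX:73827844-73827980 (1291 and 115, 2.97), and 1 on the mitochondrial genome (382 and 463 reads, -0.79).

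Toward KHSRP, the furthest shared site was the HNRNPH1 cluster printed above, with 23 FUBP3 and 115 KHSRP reads (-2.84). Next came a site on the mitochondrial genome over a tRNA, named MT-TG in the fluorescent clusters (47 and 219 reads, -2.73). The third was the ERC1 site chr12:1230759-1230797 (28 and 98 reads, -2.32), whose sequence opens with TATATA. Mitochondrial clusters made up 1.67% of FUBP3 reads (2998) and 3.17% of KHSRP reads (3993).

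Among clusters found in 1 library alone, the most read of each library lay over small noncoding RNAs. The most read FUBP3 cluster with no KHSRP overlap, chr1:173864371-173864446, had 456 reads and lies over SNORD47, a small nucleolar RNA in an intron of GAS5. The host and the small RNA cannot be told apart there. GAS5 had 490 FUBP3 and 5 KHSRP T1 reads, while its fluorescent ratios were -4.55, -3.86 and -4.88. The next nuclear ones were in NUDT19 (242 reads), TUBB (203), PPP1CC (146) and the HNRNPA0 3' UTR (129). A mitochondrial one had 164 reads.

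The most read KHSRP cluster with no FUBP3 overlap, chr7:148941502-148941564 (plus), had 1066 reads and was the most read KHSRP cluster of all. It had no fluorescent KHSRP cluster over it, and by position in RefSeq (GRCh38.p14) it lies inside RNY5, a Y RNA. Y RNAs have many near-identical pseudogenes, so its place is uncertain. Others were mitochondrial, with 733, 244 and 119 reads, the XIST cluster with 285 reads, and a cluster of 82 reads over a serine tRNA gene, chr6:27532243-27532265 (plus), which also has near-identical copies. The RNY5 window, chr7:148941515-148941544, is shown because it differs from the AU-rich mRNA sites.
RNY5, KHSRP: ttaagttgatttaacattgtctccccccac

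The cluster sequences differed in base content. FUBP3 clusters were 50.8% T, 25.5% A, 15.2% C and 8.47% G. KHSRP clusters were 46.5% T, 31.4% A, 15.2% C and 6.87% G. Within introns the contrast was larger for T, with 53.0% for FUBP3 and 46.5% for KHSRP, and A was 23.96% and 32.1%. Within 3' UTRs, T was 49.5% and 46.5%, and A was 26.8% and 31.7%. So KHSRP clusters held more A in both regions. In shared clusters, which overlap and so hold many of the same bases, T was 49.8% and 50.0% and A was 26.7% and 27.4%.

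Motifs were searched on the strand of the RNA only, and a match is a description of the letters. TTTTT was in 32.8% (32.0 to 33.5) of FUBP3 and 18.9% (18.3 to 19.6) of KHSRP clusters, and in 25.3 and 13.0 places per 1000 nt. TATA was in 28.8% (28.1 to 29.6) and 37.1% (36.3 to 37.9), and in 15.6 and 22.5 places per 1000 nt. ATTTA, the core of AU-rich elements, was in 17.5% (16.9 to 18.1) and 18.0% (17.4 to 18.7), with intervals that overlap. AAAAA was in 4.64% and 7.14%. TCTT was in 34.8% and 26.3%, and TTGT in 23.7% and 12.7%. TGTA was in 18.6% and 14.0%, GTTT in 15.6% and 8.98%, CCCC in 1.89% and 1.27% and GGGG in 0.968% and 0.343%. TGTAT, which contains TGTA, was in 10.4% and 8.24%.

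The contrast in TTTTT and TATA was present in both 3' UTRs and introns. In 3' UTRs, TTTTT was in 32.6% (31.4 to 33.9) of FUBP3 and 20.1% (17.9 to 22.4) of KHSRP clusters, and in introns in 33.8% (31.4 to 36.3) and 17.4% (16.3 to 18.5). TATA was in 31.5% and 38.7% of 3' UTR clusters and in 29.6% and 40.2% of intronic clusters. In shared clusters TTTTT was in 31.9% and 28.6% and TATA in 37.3% and 35.5%. The order for TATA turned there by share of clusters, but not per 1000 nt (18.1 and 19.3). Shared clusters overlap by definition, so close values there say little about the proteins. The fluorescent libraries at 0.5 U/ul had TTTTT in 16.9% and 12.2% and TATA in 19.6% and 28.8%, the same order as with RNase T1. For 5 of the 11 motifs the order was not the same. In fluorescent clusters of FUBP3 and KHSRP, TTGT was in 36.9% and 37.2%, TGTA in 27.7% and 35.2%, TGTAT in 11.7% and 16.0%, GTTT in 30.2% and 30.7%, and AAAAA in 3.65% and 3.03%. The part of the RNase was not tested.

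Hexamers followed the same lines. The 8 with the largest difference toward FUBP3 all had at least 5 T, and several overlap. TTTTTT was in 14.3% (13.7 to 14.9) of FUBP3 and 6.33% (5.95 to 6.75) of KHSRP clusters, ATTTTT in 16.1% and 9.84%, TTTTTC in 12.9% and 6.62%, TTTTCT in 13.8% and 7.68%, and CTTTTT in 10.8% and 5.00%. TTTTTA was in 15.8% and 10.3%, TTTCTT in 12.4% and 7.04%, and TTTATT in 17.0% and 11.6%. The 8 toward KHSRP held only A and T. TTAAAA was in 6.25% (5.87 to 6.65) and 9.005% (8.55 to 9.49), ATATAA in 2.60% and 5.09%, TTTAAA in 8.65% and 10.9%, and TAAAAT in 5.57% and 7.81%. AATATA was in 2.79% and 4.99%, ATATAT in 5.32% and 7.49%, TATAAA in 3.78% and 5.91%, and AAAATA in 3.22% and 5.34%. All 16 had the same sign of difference in the fluorescent libraries at 0.5 U/ul, from 0.167 to 2.46 percentage points toward FUBP3 and from -0.123 to -1.51 toward KHSRP.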

How the data were processed

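Each library was deposited as a list of clusters with a position, a sequence, a count of reads, a count of distinct read sequences and the fraction of reads with a T-to-C change. The counts are raw, and the deposited fraction is per cluster, per the file headers. Per the submitters' processing notes, bcl2fastq 2.20.0, cutadapt 1.15 and hg38 were used by the authors. Aligner, caller and annotation are not given in the sources used here. Reads outside clusters were not analysed here, so the total of reads in clusters stands for depth.

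Overlaps were taken on the same strand with bedtools 2.31.1 (at least 1 nt). Each T1 cluster took gene and region from the fluorescent cluster of the same protein with the longest overlap. Reads were summed per gene, divided by all reads in clusters, and compared where both libraries had at least 20. Shares carry Wilson intervals and ratios exact binomial intervals, at 95%. Python 3.11.15, numpy 2.4.6, pandas 2.3.3, scipy 1.17.1 and matplotlib 3.10.9 were used. The gene sums and calls were tested on simulated data.

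Named were the 8 genes with the most reads in each library, the 10 furthest toward each protein, up to 4 members past 2-fold of each of 12 gene lists, other list members with values, the most read and most different sites, and the 8 hexamers with the largest difference each way. The libraries, lists and members were chosen with earlier results of these data known. Alternatives were other overlaps, minimums of reads, scalings, gene assignments and weights.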

Additional observations from a re-analysis of the deposited data

Results flagged for a closer look

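Besides XIST, described above, 5 of the genes past 2-fold in the RNase T1 libraries had fluorescent ratios of the opposite sign at all 3 doses. Each value rests on 1 library per protein, and the difference between protocols was not tested. The fluorescent libraries also held fewer distinct sequences per read, unequally between the proteins. SON had a log2 ratio of 1.24 with RNase T1 (274 FUBP3 and 81 KHSRP reads) and -0.91, -0.91 and -1.53 at 0.15, 0.5 and 1.5 U/ul in the fluorescent libraries. NUP155, a nuclear pore protein, had 1.13 (81 and 26 reads) and -1.60, -1.72 and -1.63. VAPA, a membrane tether of the endoplasmic reticulum, had 1.27 (86 and 25 reads) and -0.18, -0.46 and -0.88. ZNF566 had 1.13 (100 and 32 reads) and -0.61, -0.11 and -0.33. RP6-24A23.7 was the 1 gene in the other direction, with -1.14 (53 and 82 reads) and 0.60, 1.14 and 1.92.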

How the results depend on the processing

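The 32 genes named by reads or ratio kept their side of 2-fold in each setting that could compare them (190 values), and 2 of these values changed sign, both of genes within 2-fold. They were ERC1 without its most read clusters (-0.39) and HNRNPA2B1 with centred ratios (0.17). The size of the ratios was less stable than their side, and some left their counting intervals. With genes named from fluorescent clusters of both proteins, HNRNPA0 had 3.31, SMC1A 1.79, TIAL1 -2.58, RBM39 -2.60 and IARS -2.41, all nearer equal shares. CDC42BPA (-3.78) and NUDT19 (3.17) moved the other way. With RefSeq gene spans HELLS had -1.31. Of 100 summary values, 40 moved by less than counting error or 1.5 times, and the other 60 moved further, 5 of them with a change of sign. The cause was not tested unless given. With an overlap of 50% of each cluster, the shared share was 14.1% (FUBP3) and 14.4% (KHSRP), recovery in fluorescent libraries was 26.3% and 13.2% for FUBP3 (own and other protein) and 12.6% and 13.4% for KHSRP, and 29 shared sites lay toward FUBP3 and 35 toward KHSRP, which turned the order. With at least 10 reads, 23.8% of KHSRP clusters were shared, 168 and 193 genes were past 2-fold toward FUBP3 and KHSRP, and there were 79.9 and 75.2 distinct sequences per 100 reads. With at least 3 distinct sequences, the shared shares were 16.0% and 17.3% and recovery was 58.0%, 39.1%, 48.8% and 33.99% in the same order. The 1000 most read clusters gave shared shares of 21.4% and 23.1%. With genes and regions from fluorescent clusters of both proteins, 3' UTRs held 63.3% and 21.5% and introns 23.4% and 64.9%, and list medians were -1.01 (speckle), -0.54 (helicases), 1.24 (AU-rich) and -0.28 (noncoding, a change of sign). With the library at 0.5 U/ul alone, 3' UTRs held 73.6% and 19.7% and introns 14.1% and 65.8%. Genes past 2-fold were 20 and 48 with at least 50 reads and 121 and 267 with RefSeq gene spans, and 34 toward FUBP3 without the most read cluster of each gene. Distinct sequences in place of reads gave 36 shared sites toward FUBP3 and list medians of -0.26 (helicases) and -1.93 (AU-rich, a change of sign, over 2 genes in place of 4). Weighted by reads, the differences in motif share (FUBP3 minus KHSRP, percentage points) were -4.64 (TATA), 13.2 (TGTA), 8.03 (TGTAT), 20.8 (TTGT), 0.41 (ATTTA, a change of sign), 21.2 (TTTTT), 13.7 (TCTT), 16.3 (GTTT), 2.03 (CCCC), 1.62 (GGGG) and 0.028 (AAAAA, a change of sign). In clusters of 20 to 30 nt they were 2.44 (TGTA), 0.852 (TGTAT), 8.69 (TTGT) and 4.60 (GTTT). Ratios centred on the median gene gave list medians of 0.17 (SR and hnRNP, a change of sign), -0.97 (speckle), -0.55 (helicases), 1.37 (AU-rich) and 0.80 (noncoding). No paired analysis was possible because each protein had 1 library. Reads of clusters under 5 reads are not listed, so a gene without a cluster may still be bound, and named clusters had more reads (medians 9 and 8) than those without a name (6 in both).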
